A study of Mus musculus with 18 samples.

Results

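The CC chemokine ligand genes described here are Ccl2, Ccl3, Ccl4, Ccl5, Ccl6, Ccl7, Ccl9, Ccl12, Ccl22 and Ccl24 in mouse bone marrow-derived macrophages. The members were taken by gene symbol from the platform annotation, and they were chosen with earlier results of these data known. Each of the 10 symbols had 1 row among the 24705 rows with a gene symbol, and the reported fit used no filter on low values. The macrophages were grown from femoral marrow with M-CSF at 30 ng/ml, a growth factor for macrophages. After 4 days their serum was replaced by 10% mouse plasma for 48 hours, and RNA was taken for Affymetrix arrays on day 6. The plasma donors were C57BL/6J mice on a Western diet for 8 weeks, so all groups share the diet, the strain and the plasma exposure. There were 4 arrays with plasma of wild-type donors (WT) and 5 with plasma of donors lacking apolipoprotein E (ApoE). A further 3 had plasma of donors lacking apolipoprotein E and stabilin-1 (AS1), and 6 plasma of donors lacking apolipoprotein E and stabilin-2 (AS2). The labels name the genotype of the plasma donors, not one of the macrophages, and give neither the donors' age nor whether plasma was pooled.

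CC chemokines are small secreted proteins that draw leukocytes along a gradient by binding G protein-coupled receptors on the cell surface. Apolipoprotein E carries plasma lipids, and donors without it become hyperlipidaemic on a Western diet. Stabilins are scavenger receptors of endothelial cells and macrophages that clear ligands from the circulation. In macrophages, chemokine genes are known as targets of inflammatory signalling through NF-kB, interferons and interleukin-4. Ccl2, Ccl7 and Ccl12 are ligands of Ccr2 and attract monocytes. Ccl3, Ccl4 and Ccl5 attract monocytes and T cells, and Ccl3 and Ccl5 bind Ccr1. Ccl6 and Ccl9 are rodent ligands of Ccr1 made in large amounts by myeloid cells. Ccl22 attracts T cells through Ccr4, and Ccl24 attracts eosinophils through Ccr3.

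In the RefSeq annotation, Ccl2 and Ccl7 are adjacent protein-coding genes. Ccl5, Ccl9, Ccl6, Ccl3 and Ccl4 follow each other in that order in a second group, and Ccl22 and Ccl24 lie elsewhere. The 250 bases upstream of the annotated start (RefSeq, build GRCm38.p6) were at hand for 5 of the 10 genes, namely Ccl3, Ccl6, Ccl9, Ccl12 and Ccl22. The sequences of Ccl22, Ccl3 and Ccl9 are shown because these genes moved in 3 different ways: Ccl22 with AS2 plasma, Ccl3 with ApoE plasma, and Ccl9 by small amounts, lower with ApoE than with WT plasma and higher with AS2 than with ApoE plasma. Ccl22 is at chr8:94745434-94745683 on the plus strand, Ccl3 at chr11:83649379-83649628 and Ccl9 at chr11:83578637-83578886, both on the minus strand. Each is written 5′ to 3′ on the strand of its gene, with matches to searched motifs in capitals.
Ccl22: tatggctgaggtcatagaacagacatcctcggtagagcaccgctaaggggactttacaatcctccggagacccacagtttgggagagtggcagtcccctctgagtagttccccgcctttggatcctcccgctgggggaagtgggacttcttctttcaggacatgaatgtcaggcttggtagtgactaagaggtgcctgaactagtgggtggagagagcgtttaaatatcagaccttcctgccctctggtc
Ccl3: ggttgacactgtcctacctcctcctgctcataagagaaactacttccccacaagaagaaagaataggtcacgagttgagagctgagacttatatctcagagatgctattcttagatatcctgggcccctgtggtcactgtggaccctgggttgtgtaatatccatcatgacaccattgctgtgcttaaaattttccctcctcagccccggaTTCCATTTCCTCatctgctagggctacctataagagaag
Ccl9: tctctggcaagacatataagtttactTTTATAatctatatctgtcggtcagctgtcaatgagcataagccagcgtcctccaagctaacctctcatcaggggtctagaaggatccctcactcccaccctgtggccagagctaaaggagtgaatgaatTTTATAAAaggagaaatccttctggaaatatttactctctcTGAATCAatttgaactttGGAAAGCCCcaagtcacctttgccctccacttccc
The motifs were searched on both strands. They were NF-kB (GGGNNTTCC), STAT (TTCNNNGAA), AP-1 (TGANTCA), interferon response (GAAANNGAA), PU.1 (GAGGAA) and the TATA box (TATAAA). The window of Ccl22 held none of these letters. The window of Ccl3 held an interferon response match and a PU.1 match, which overlap each other. The window of Ccl9 held 1 NF-kB match, 1 AP-1 match and 3 TATA box matches, the last 2 of which overlap. Of 32851 windows of the same length, 4.98% held the NF-kB letters, 7.02% STAT, 6.75% AP-1, 7.13% interferon response, 23.3% PU.1 and 12.4% the TATA box. A match describes the letters and is no evidence of binding.

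Across genes, each array correlated with the others of its group at an average r between 0.991 and 0.997. The lowest of these belonged to ApoE replicate 2, and ApoE replicate 5 had an AS1 array as its closest array of another group (r = 0.994), so calls that change without both are given with that value. Macrophage markers (7 measured genes) averaged 10.69 to 11.30 on the log2 scale in every array. T and NK cell markers (8 genes) averaged 4.07 to 4.42 and B cell markers (5 genes) 4.07 to 4.90. Single genes of these 2 lists lay above those means. Cd4 averaged 6.67 with WT, 7.86 with ApoE, 8.10 with AS1 and 6.20 with AS2 plasma. Cd79b averaged 6.48, 5.94, 7.16 and 5.36 in the same order. Neutrophil markers (11 genes) averaged 7.29 to 8.40 with ApoE, 9.18 to 9.45 with AS1, 6.79 to 7.48 with AS2 and 7.32 to 7.61 with WT plasma. In arrays of a whole culture, fewer cells of a type and less RNA per cell cannot be told apart. Whether each replicate had its own culture or its own plasma is not stated in the labels, and the p-values therefore cover array-to-array spread that may be technical only.

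**Figure D1:**
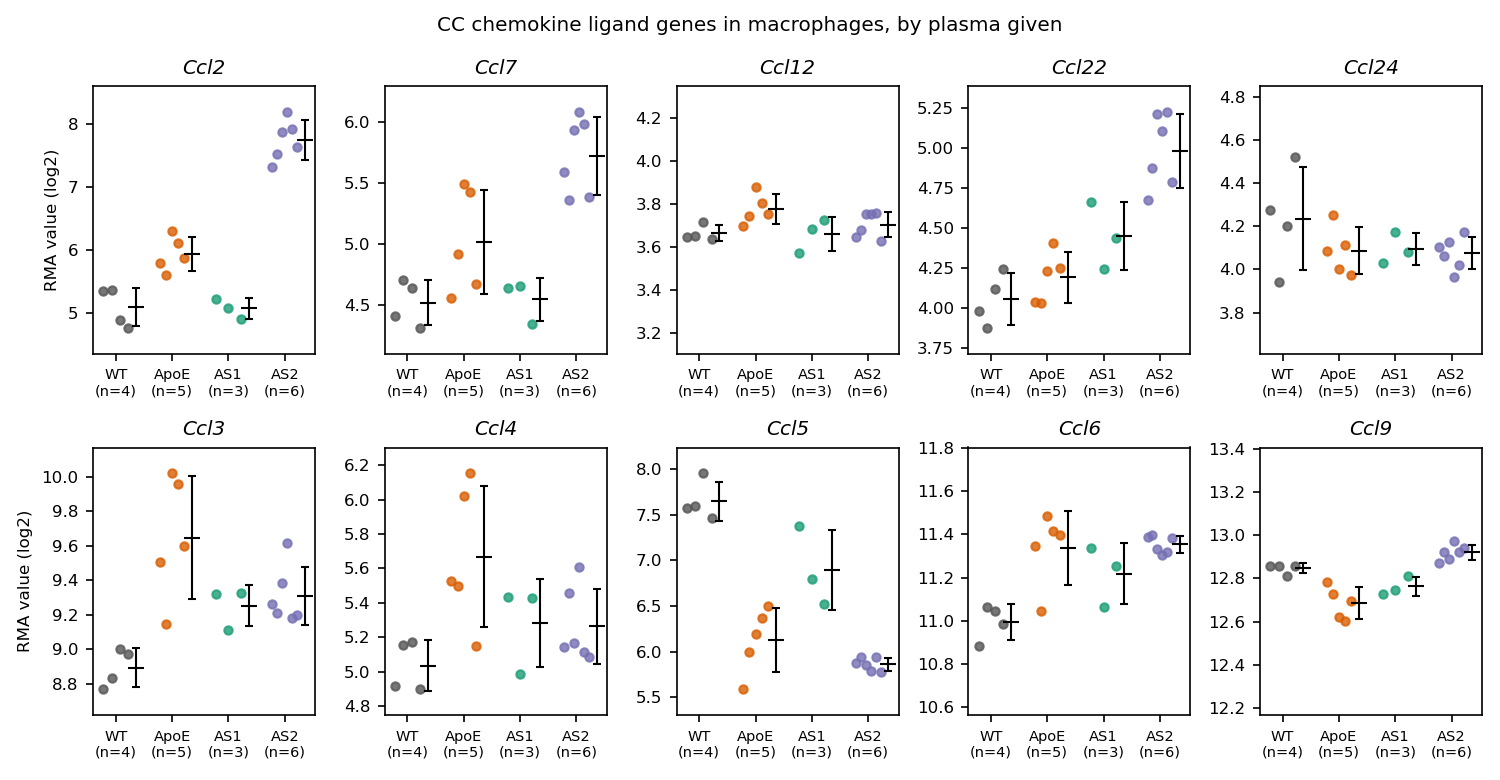
Log2 RMA values of the 10 ligand genes (vertical axes, each panel with its own range) by plasma group; points are arrays and black bars give the mean and SD. Ccl2, Ccl7 and Ccl22 are highest with AS2 plasma, where Ccl2 reaches 7.32 to 8.20, and Ccl5 is highest with WT plasma, at 7.46 to 7.95.

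Among the Ccr2 ligands, Ccl2 and Ccl7 rose with AS2 plasma, and the Ccl2 difference was the largest of any member in these data. On the log2 scale, where 1 unit is a 2-fold difference, Ccl2 was 5.34, 5.36, 4.89 and 4.76 in the 4 WT arrays. With ApoE plasma it was 5.78, 5.61, 6.30, 6.11 and 5.87, and with AS1 plasma 5.22, 5.08 and 4.90. With AS2 plasma it ran from 7.32 through a median of 7.76 to 8.20. Every AS2 array lay above every ApoE array, every ApoE array lay above every WT and AS1 array, and the WT and AS1 arrays overlapped. The mean was 7.75 ± 0.32 (SD, n = 6) with AS2 plasma, 5.93 ± 0.27 (SD, n = 5) with ApoE, 5.09 ± 0.31 (SD, n = 4) with WT and 5.07 ± 0.16 (SD, n = 3) with AS1. Ccl2 was therefore 6.33-fold higher with AS2 than with WT plasma (2.66 ± 0.17 log2 units, SE, limma adjusted p = 2.99e-09). It was 3.52-fold higher with AS2 than with ApoE plasma (adjusted p = 2.40e-07) and 6.42-fold higher than with AS1 plasma (adjusted p = 1.75e-08). With ApoE plasma it rose 1.80-fold over WT (0.84 ± 0.18, adjusted p = 0.00214), and with AS1 plasma it was 1.82-fold lower than with ApoE (adjusted p = 0.00368). The difference between AS1 and WT was -0.02 ± 0.20 (adjusted p = 0.973). The 5 called differences of Ccl2 passed the threshold in each of the 28 alternative settings.

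Ccl7, the gene next to Ccl2, varied over 1.77 log2 units. It was 4.41, 4.70, 4.64 and 4.31 with WT plasma, 4.56, 4.92, 5.50, 5.42 and 4.67 with ApoE plasma, and 4.64, 4.66 and 4.34 with AS1 plasma. With AS2 plasma it ran from 5.37 through a median of 5.76 to 6.08. The AS2 arrays lay above all WT and AS1 arrays, and ApoE replicates 3 and 4 reached into their range. Ccl7 rose 2.31-fold with AS2 plasma over WT (1.21 ± 0.19, adjusted p = 0.000131), 2.26-fold over AS1 (adjusted p = 0.000336) and 1.64-fold over ApoE (0.71 ± 0.18, adjusted p = 0.00845). Without both ApoE replicates 2 and 5 the difference from ApoE did not pass (0.56, adjusted p = 0.0873). ApoE against WT was 0.50 ± 0.20 (adjusted p = 0.103), and it passed without ApoE replicate 1 (0.61, adjusted p = 0.0420), whereas without ApoE replicate 3 it was 0.38 (adjusted p = 0.237). Ccl12, a ligand of Ccr2 like Ccl2, stayed between 3.57 and 3.88, below the median value of 4.37 in all 18 arrays. None of its 6 differences passed, the largest being -0.11 ± 0.05 for AS1 against ApoE (adjusted p = 0.140).

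Of the remaining ligands of T cells and eosinophils, Ccl22 rose with AS2 plasma and Ccl24 did not pass in any comparison. Ccl22 was 3.98, 3.88, 4.12 and 4.24 with WT plasma and 4.04, 4.03, 4.23, 4.40 and 4.25 with ApoE plasma. It was 4.66, 4.24 and 4.44 with AS1 plasma, and with AS2 plasma it ran from 4.67 through a median of 4.99 to 5.22. The lowest AS2 array lay just above the highest AS1 array, and WT, ApoE and AS1 overlapped. The increase with AS2 plasma was 1.73-fold over ApoE (0.79 ± 0.11, adjusted p = 4.76e-05), 1.90-fold over WT (0.92 ± 0.12, adjusted p = 1.50e-05) and 1.45-fold over AS1 (0.53 ± 0.13, adjusted p = 0.00534). These 3 calls held in all 28 settings. The values of Ccl22 were below the median value of 4.37 in 9 of 18 arrays, so it was a dim row outside the AS2 group. Ccl24 was below 4.37 in 17 of 18 arrays. Its widest spread was in WT, where it was 4.28, 3.94, 4.20 and 4.52. ApoE against WT was -0.15 ± 0.09 (adjusted p = 0.330) and AS2 against WT -0.16 ± 0.08 (adjusted p = 0.250). Both passed without WT replicate 2, the lowest WT array (-0.25 and -0.26, adjusted p = 0.0318 and 0.0196). Without WT replicate 4, the highest WT array, they shrank to -0.05 and -0.06 (adjusted p = 0.785 and 0.705).

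Ccl3 and Ccl4, which are neighbours on the genome, were both highest with ApoE plasma. Ccl3 was 8.77, 8.83, 9.0 and 8.97 with WT plasma and 9.50, 9.15, 10.02, 9.96 and 9.60 with ApoE plasma. With AS1 plasma it was 9.32, 9.11 and 9.32, and with AS2 plasma it ran from 9.18 through a median of 9.23 to 9.62. All WT arrays lay below all others, and the ApoE arrays overlapped with AS1 and AS2. Ccl3 rose 1.69-fold with ApoE plasma over WT (0.75 ± 0.14, adjusted p = 0.000830) and 1.33-fold with AS2 plasma over WT (0.42 ± 0.14, adjusted p = 0.0415). The second of these calls was lost when any of WT replicates 1, 2, 3 and 4 or AS2 replicates 1, 3 and 4 was left out (adjusted p from 0.0553 to 0.122). AS1 against WT was 0.36 ± 0.16 and did not pass (adjusted p = 0.211), although the arrays did not overlap, and it passed in a fit of the 2 groups alone (adjusted p = 0.0354). AS1 and AS2 against ApoE were -0.39 ± 0.15 and -0.34 ± 0.13 (adjusted p = 0.0985 and 0.0918). Without ApoE replicate 2, the lowest ApoE array, both passed (-0.52 and -0.46, adjusted p = 0.00753 and 0.00521), as they did without both ApoE replicates 2 and 5 (-0.58 and -0.52, adjusted p = 0.00521 and 0.00462) and with array weights (adjusted p = 0.0100 and 0.00264). The AS2 difference also passed without AS2 replicate 4 (adjusted p = 0.0441). Without ApoE replicate 3, the highest ApoE array, they were -0.30 and -0.24 (adjusted p = 0.214 and 0.244).

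Ccl4 was 4.92, 5.16, 5.17 and 4.90 with WT plasma and 5.53, 5.50, 6.02, 6.15 and 5.15 with ApoE plasma. It was 5.44, 4.99 and 5.43 with AS1 plasma and 5.09 to 5.61 with AS2 plasma, with a median of 5.16. ApoE replicate 5 lay within the WT range, and the other 4 ApoE arrays lay above it. Ccl4 rose 1.55-fold with ApoE plasma (0.63 ± 0.17, adjusted p = 0.0160). The call was lost without WT replicate 1 or 4 (adjusted p = 0.0505 and 0.0528) and in a fit of the 2 groups alone (adjusted p = 0.0558). AS1 and AS2 against ApoE were -0.39 ± 0.19 and -0.41 ± 0.16 (adjusted p = 0.216 and 0.102). Without ApoE replicate 5 both passed (-0.52 and -0.54, adjusted p = 0.0464 and 0.0160), and without both ApoE replicates 2 and 5 too (-0.62 and -0.64, adjusted p = 0.0203 and 0.00763). The AS2 difference also passed with array weights (adjusted p = 0.0256). In the other direction, the AS1 difference was -0.24 without AS1 replicate 2 (adjusted p = 0.581), and the AS2 difference -0.28 without ApoE replicate 4 (adjusted p = 0.276).

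Ccl5, which attracts T cells and monocytes, was highest with WT plasma and lowest with ApoE and AS2 plasma. It was 7.58, 7.59, 7.95 and 7.46 with WT plasma, 5.59, 5.99, 6.19, 6.37 and 6.50 with ApoE plasma and 7.38, 6.79 and 6.52 with AS1 plasma. With AS2 plasma it ran from 5.77 through a median of 5.87 to 5.94. The WT arrays lay above all others, the AS1 arrays lay above the ApoE and AS2 arrays, and ApoE and AS2 overlapped. The mean was 7.65 ± 0.21 (SD, n = 4) with WT, 6.90 ± 0.44 (SD, n = 3) with AS1, 6.13 ± 0.36 (SD, n = 5) with ApoE and 5.86 ± 0.07 (SD, n = 6) with AS2 plasma. Ccl5 was 2.87-fold lower with ApoE than with WT plasma (1.52 ± 0.17 log2 units lower, adjusted p = 3.92e-06) and 3.45-fold lower with AS2 than with WT plasma (adjusted p = 2.77e-07). It was also 2.05-fold lower with AS2 than with AS1 plasma (adjusted p = 0.000294). These 3 calls held in all 28 settings. AS2 against ApoE was -0.27 ± 0.15 (adjusted p = 0.333).
With AS1 plasma, Ccl5 was 1.70-fold higher than with ApoE (0.77 ± 0.18, adjusted p = 0.00660) and 1.68-fold lower than with WT (0.75 ± 0.19 log2 units lower, adjusted p = 0.0180). The AS1 arrays spread over 0.85 log2 units, with replicate 1 the highest. Without AS1 replicate 1 the difference from ApoE fell to 0.53 (adjusted p = 0.0682), and in a fit of the 2 groups alone its adjusted p was 0.0812. The difference from WT lost its call without WT replicate 3 (-0.65, adjusted p = 0.0612), AS1 replicate 2 (-0.70, adjusted p = 0.0667) or AS1 replicate 3 (-0.56, adjusted p = 0.126), and in a fit of the 2 groups alone (adjusted p = 0.0652).

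The rodent ligands Ccl6 and Ccl9 varied little, over 0.60 and 0.37 log2 units. Ccl6 was 10.88, 11.06, 11.04 and 10.98 with WT plasma and 11.34, 11.04, 11.48, 11.42 and 11.40 with ApoE plasma. It was 11.34, 11.06 and 11.25 with AS1 plasma and 11.30 to 11.40 with AS2 plasma, with a median of 11.36. Only the AS2 arrays lay wholly above WT, since ApoE replicate 2 and AS1 replicate 2 fell within the WT range. Ccl6 rose 1.27-fold with ApoE (0.34 ± 0.07, adjusted p = 0.00286) and 1.28-fold with AS2 plasma (0.36 ± 0.07, adjusted p = 0.00129) over WT. AS1 against ApoE was -0.12 ± 0.08 (adjusted p = 0.426) and passed without ApoE replicate 2 (-0.19, adjusted p = 0.0374), whereas without AS1 replicate 2 it was -0.04 (adjusted p = 0.855). AS1 against WT was 0.23 ± 0.08 (adjusted p = 0.121) and passed without AS1 replicate 2 (0.30, adjusted p = 0.0483) and, at the same difference of 0.23, without ApoE replicate 2 (adjusted p = 0.0219) or both ApoE replicates 2 and 5 (adjusted p = 0.0272). It also passed with array weights (0.25, adjusted p = 0.0249), and without AS1 replicate 1 it was 0.17 (adjusted p = 0.411).

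Ccl9 was 12.86, 12.86, 12.81 and 12.86 with WT plasma and 12.79, 12.73, 12.62, 12.60 and 12.70 with ApoE plasma. It was 12.73, 12.75 and 12.81 with AS1 plasma and 12.87 to 12.97 with AS2 plasma, with a median of 12.92. All ApoE arrays lay below all WT arrays, and all AS2 arrays lay above every other array. Ccl9 was 1.12-fold lower with ApoE than with WT plasma (0.16 ± 0.04 log2 units lower, adjusted p = 0.00703). It was 1.18-fold higher with AS2 than with ApoE plasma (0.23 ± 0.04, adjusted p = 0.000100) and 1.12-fold higher than with AS1 plasma (0.16 ± 0.04, adjusted p = 0.00877). The ApoE call was lost in a fit of the 2 groups alone (adjusted p = 0.0537), and the last call without AS1 replicate 1 (adjusted p = 0.0570). AS2 against WT was 0.07 ± 0.04 and did not pass (adjusted p = 0.235). Its mean over the arrays was above that of 99.9% of rows, and that of Ccl6 above 99.2%.

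**Figure D2:**
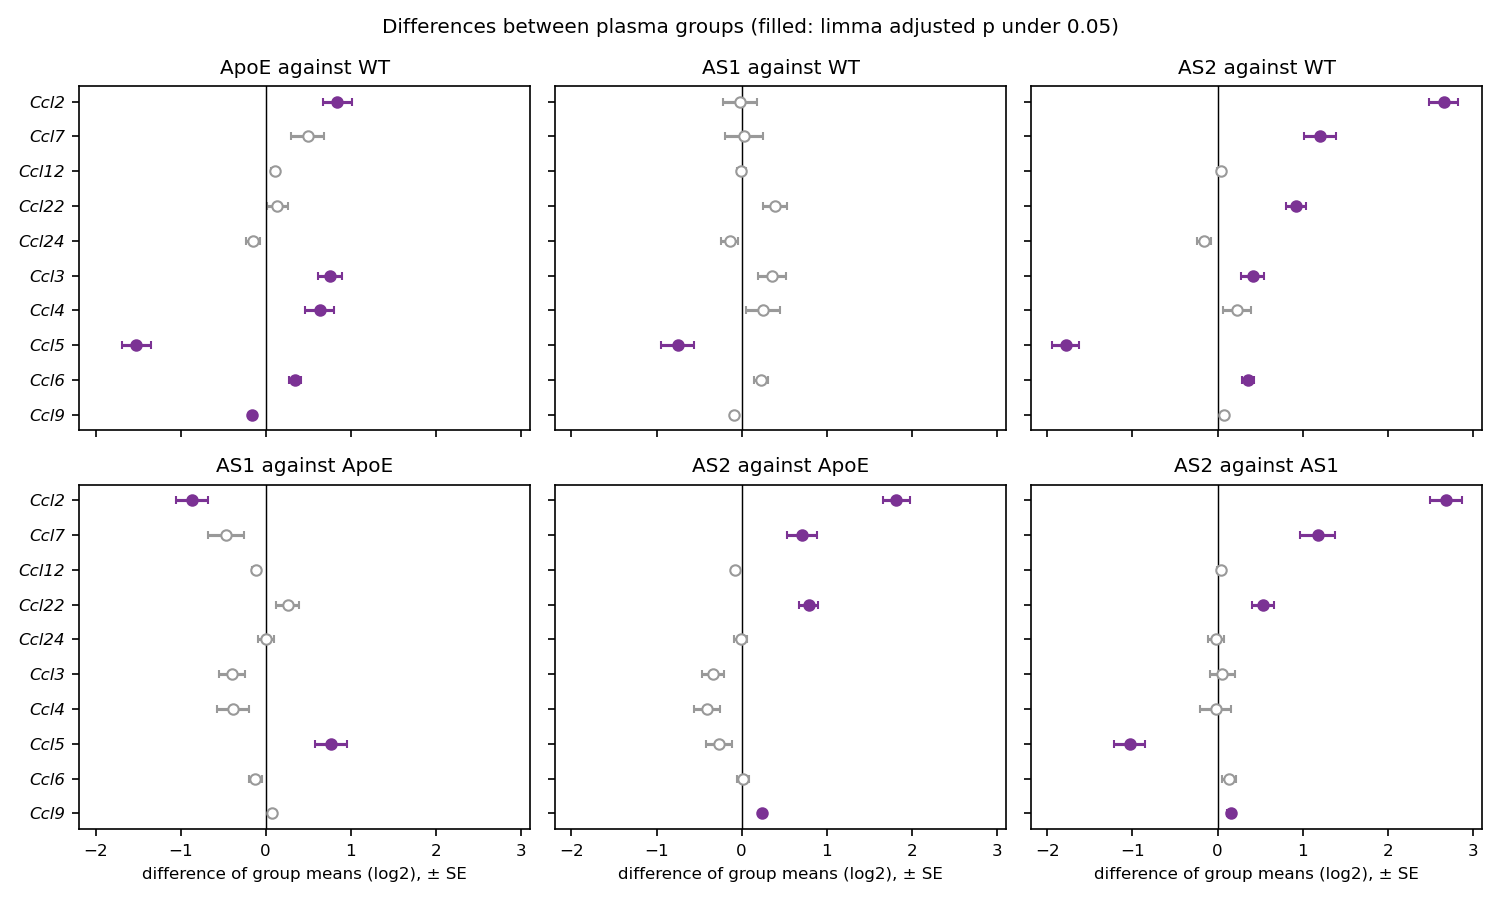
Differences of group means (horizontal axes, log2, with SE) for the 10 ligand genes in 6 pairs of plasma groups; filled points had a limma adjusted p under 0.05. Ccl2 lies furthest to the right wherever AS2 is compared (2.66 over WT), and Ccl5 furthest to the left in ApoE and AS2 against WT (-1.52 and -1.79).

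Of the 10 ligand genes, 4 rose and 2 fell with ApoE plasma against WT (Ccl2, Ccl3, Ccl4 and Ccl6 higher, Ccl5 and Ccl9 lower). Over all rows tested, 8.54% rose and 8.36% fell in that comparison. The arrays of the 2 groups did not overlap for 4 members, and for 14.3% of all rows. With AS2 against WT, 5 rose and Ccl5 fell (8.65% and 9.20% of all rows), and 7 members did not overlap (17.0% of all rows). Those that rose were Ccl2, Ccl3, Ccl6, Ccl7 and Ccl22. With AS2 against ApoE, Ccl2, Ccl7, Ccl9 and Ccl22 rose and none fell (7.59% and 8.02% of all rows), and 3 did not overlap (10.9% of all rows). With AS1 against ApoE, only Ccl5 rose and only Ccl2 fell (7.74% and 8.80% of all rows), and 2 did not overlap (18.2% of all rows). That count of 2 calls became 4 without ApoE replicate 2, or without both ApoE replicates 2 and 5, and 1 without AS1 replicate 1. With AS1 against WT, only Ccl5 fell and none rose (4.64% and 4.84% of all rows), and 2 did not overlap (18.1% of all rows). That count of 1 became 0 without WT replicate 3 or AS1 replicate 3 and 2 without ApoE replicate 2. With AS2 against AS1, Ccl2, Ccl7, Ccl9 and Ccl22 rose and Ccl5 fell (11.5% and 10.6% of all rows), and 5 did not overlap (23.9% of all rows). The median difference of the members was 0.24 log2 units for ApoE against WT, -0.12 for AS1 against ApoE and 0.0025 for AS2 against ApoE, beside -0.0036, 0.0019 and -0.0024 over all rows. Comparisons that share a group of arrays are not independent of each other. Because the members were chosen with earlier results of these data known, their counts are no test against the shares of all rows.

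**Figure D3:**
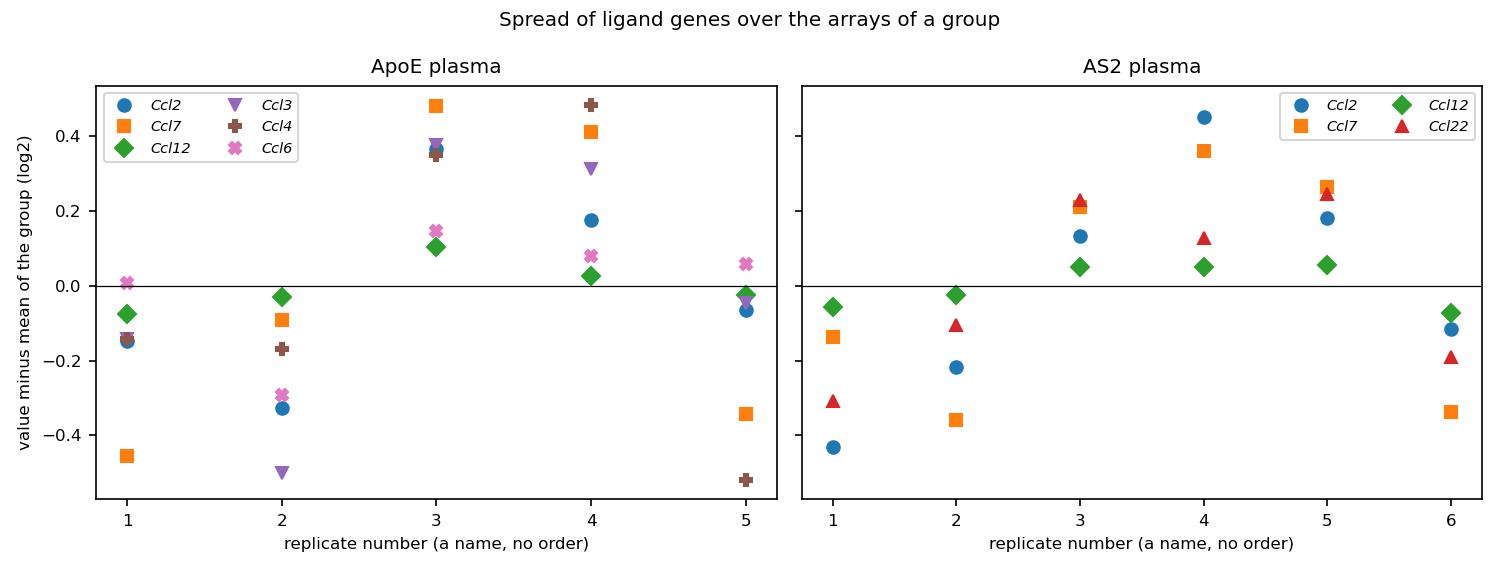
Values of single arrays minus the mean of their group (vertical axis, log2) for 6 ligand genes in the 5 ApoE arrays and 4 ligand genes in the 6 AS2 arrays; the replicate number is a name. The genes of each panel were picked because ApoE replicates 3 and 4, or AS2 replicates 3, 4 and 5, held their highest values. The other members are left out of each panel. Among them, these arrays held the lowest values of Ccl9 for ApoE and of Ccl6 for AS2.

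Arrays of a group were high or low for several ligands at the same time. ApoE replicates 3 and 4 held the 2 highest ApoE values of 6 of 10 members, namely Ccl2, Ccl3, Ccl4, Ccl6, Ccl7 and Ccl12, and the 2 lowest of Ccl9. The same arrays were the 2 highest in 10.6% and the 2 lowest in 11.6% of all rows. AS2 replicates 3, 4 and 5 held the 3 highest AS2 values of Ccl2, Ccl7, Ccl12 and Ccl22 and the 3 lowest of Ccl6, as they did in 7.67% and 9.74% of all rows. These arrays were noted after their values were seen.

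**Figure D4:**
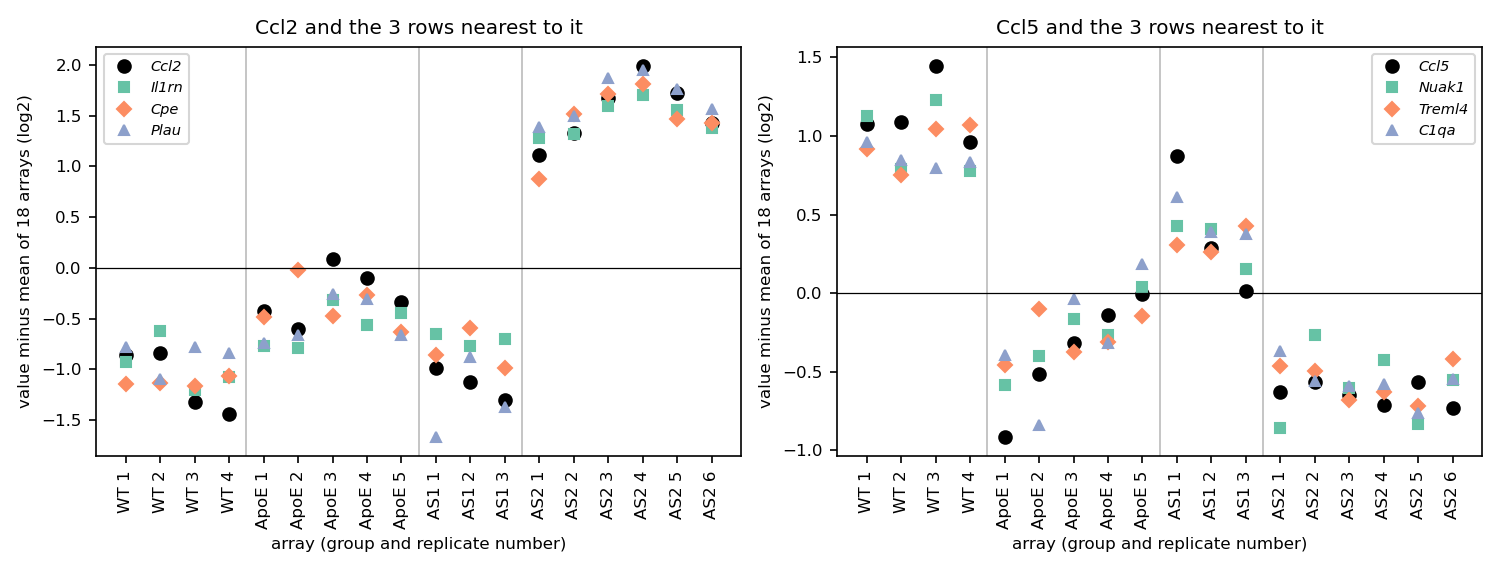
Log2 values minus the mean over 18 arrays (vertical axes) for Ccl2 and Ccl5 and the 3 rows nearest to each, array by array (horizontal axes, grey lines between groups). Il1rn, Cpe and Plau share the high AS2 values of Ccl2, and Nuak1, Treml4 and C1qa the high WT values of Ccl5.

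For the 6 ligands that varied by at least 1 log2 unit, the 3 rows with the most similar profile were found. Likeness was the root mean square difference between values centred on the row mean, over 18 arrays, so a smaller value means more alike. Nearest to Ccl2 were Il1rn, the interleukin-1 antagonist (0.29 log2 units), the peptidase gene Cpe (0.31) and the protease gene Plau (0.32), where Ccl2 itself varied by 1.17 about its mean. Il1rn averaged 7.20 with WT, 7.58 with ApoE, 7.45 with AS1 and 9.64 with AS2 plasma. Nearest to Ccl7 (0.58 about its mean) were the phosphatase gene Dusp4 (0.23), the desaturase gene Scd1 (0.24) and Tnfrsf23 (0.25). Nearest to Ccl22 (0.42) were the lysosomal sulfatase gene Arsb (0.14), Phf19 (0.15) and Cass4 (0.18). Nearest to Ccl3 (0.33) were Pmp22 (0.13), the tryptophanyl-tRNA synthetase gene Wars (0.15) and B4galt5 (0.15). Nearest to Ccl4 (0.34) were Lrrc27 (0.19), its neighbour Ccl3 (0.20) and Cyb5r1 (0.20). Nearest to Ccl5 (0.74) were the kinase gene Nuak1 (0.22), Treml4 (0.28) and the complement gene C1qa (0.28). The points share the 4 group means, so likeness largely describes the order of the groups.

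Some receptors of these ligands also moved. Of 11 measured CC chemokine receptor genes, 1 rose and 2 fell with ApoE plasma against WT (8.54% and 8.36% of all rows). With AS1 against ApoE 4 rose and 1 fell (7.74% and 8.80% of all rows). With AS2 against ApoE 2 rose and 2 fell (7.59% and 8.02% of all rows). Counts this small were not tested against those shares. Ccr2, which binds Ccl2, Ccl7 and Ccl12, averaged 8.68 with WT, 6.83 with ApoE, 8.40 with AS1 and 8.83 with AS2 plasma. It fell 3.59-fold with ApoE plasma against WT (adjusted p = 1.42e-08) and was 3.98-fold higher with AS2 than with ApoE plasma (adjusted p = 1.31e-09), whereas AS2 against WT was 0.15 ± 0.12 (adjusted p = 0.513). With AS1 plasma Ccr2 was 2.96-fold higher than with ApoE plasma (adjusted p = 1.22e-06). Ccl2 and Ccr2 thus both rose with AS2 against ApoE plasma. They moved in opposite directions with ApoE against WT plasma and with AS1 against ApoE plasma. Ccr1, a receptor of Ccl3, Ccl5, Ccl6, Ccl7 and Ccl9, rose 2.05-fold with AS2 (adjusted p = 0.000562) and 1.91-fold with AS1 plasma (adjusted p = 0.00661) over ApoE. Ccr3, the receptor of Ccl24, averaged 7.52 with WT, 6.38 with ApoE, 7.26 with AS1 and 5.86 with AS2 plasma. Ccrl2, an atypical receptor, rose 3.12-fold with ApoE plasma over WT (adjusted p = 8.29e-07) and was 4.30-fold lower with AS2 than with ApoE (adjusted p = 1.38e-08).

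None of the 9 other measured CC ligand genes passed limma's adjusted threshold in any of the 6 comparisons, and 4 of the 54 tests had an unadjusted p under 0.05. As a list these genes averaged 4.07 to 4.28 in the arrays, below the median value of 4.37. At such low values the lack of calls does not show that they did not respond. The smallest p in the 3 comparisons with ApoE belonged to Ccl20 with AS1 plasma (0.19 ± 0.08, adjusted p = 0.143). Of 15 CXC, CX3C and XC ligand genes, 2 rose and 5 fell with ApoE against WT (8.54% and 8.36% of all rows). With AS1 against ApoE 2 rose and 1 fell (7.74% and 8.80% of all rows). With AS2 against ApoE 1 rose and 3 fell (7.59% and 8.02% of all rows). Cxcl2, a neutrophil attractant, rose 2.29-fold with ApoE plasma over WT (adjusted p = 0.00113), and was 2.73-fold lower with AS2 than with ApoE plasma (adjusted p = 6.28e-05), where Ccl2 rose. Pf4 was 4.15-fold lower with AS2 than with WT plasma (adjusted p = 1.04e-08). Cxcl16 fell with ApoE plasma, from 11.03 to 10.38, as Ccl5 did, and Cxcl14 fell from 6.64 to 5.19.

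Genes of the pathways known to regulate these ligands moved in both directions. Over all rows, 8.54% rose and 8.36% fell with ApoE against WT, and 7.74% and 8.80% with AS1 against ApoE. With AS2 against ApoE 7.59% rose and 8.02% fell. Of 14 genes of the NF-kB list, 1 rose and 7 fell with ApoE against WT (median -0.34), 8 rose and 1 fell with AS1 against ApoE (median 0.28), and 4 rose and 3 fell with AS2 against ApoE (median -0.02). Nfkbiz averaged 7.56 with WT, 6.55 with ApoE, 7.07 with AS1 and 6.25 with AS2 plasma, the same order as Ccl5. The inhibitor gene Nfkbia was 1.42-fold higher with AS2 than with ApoE plasma (adjusted p = 2.44e-07). Il1a averaged 4.23 with WT and 5.92 with ApoE plasma but 4.16 with AS2 plasma. Of 11 interferon-stimulated genes, 7 fell with ApoE against WT (median -0.34), and with AS2 against ApoE 8 rose (median 0.31), whereas Ccl5 fell in the first comparison and did not pass in the second. With AS1 against ApoE 4 rose and none fell (median 0.28). Irf7, a transcription factor of the interferon response, averaged 8.99 with WT, 7.41 with ApoE, 8.41 with AS1 and 8.11 with AS2 plasma. Of 12 alternative activation genes, 2 rose with ApoE against WT, 3 rose with AS1 against ApoE, and 3 rose and 3 fell with AS2 against ApoE. Arg1 rose 1.47-fold with AS2 over ApoE plasma (adjusted p = 2.82e-05) together with Ccl22, while Chil3 was 3.32-fold lower (adjusted p = 2.09e-07).

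Some markers of other cell types were called in the same comparisons. Over all rows, 8.54% rose and 8.36% fell with ApoE against WT, and 7.74% and 8.80% with AS1 against ApoE. With AS2 against ApoE 7.59% rose and 8.02% fell, and with AS2 against AS1 10.6% fell. Single calls in these short lists were not tested against such shares. All 11 neutrophil markers rose with AS1 against ApoE plasma (median 1.38 log2 units), and all 11 were lower with AS2 than with AS1 plasma. With AS2 against ApoE 5 of the 11 fell, and with ApoE against WT 2 rose. Of 8 markers of mast cells, basophils and eosinophils, 4 rose with AS1 against ApoE and 1 fell with ApoE against WT, with array means from 4.77 to 5.22 in AS1 and from 4.09 to 4.46 in the other groups. Of 8 dendritic cell markers, 3 rose with ApoE against WT and 2 with AS1 against ApoE. With AS2 against ApoE 1 of them rose and 2 fell (median -0.03 log2 units). Their array means ran from 4.78 to 4.96 in AS2 and from 4.79 to 4.91 in AS1. They ran from 4.53 to 4.74 in ApoE and from 4.51 to 4.62 in WT. The 1 that rose was Itgax, 7.31-fold (adjusted p = 9.17e-11), in the comparison in which Ccl22 rose, while Clec9a and Flt3 fell. Clec9a averaged 4.51 with ApoE and 4.20 with AS2 plasma, and Flt3 4.60 and 4.33, close to the median value of 4.37. Of 7 macrophage markers, 1 rose and 5 fell with ApoE against WT, 5 rose with AS1 against ApoE, and 2 rose and 2 fell with AS2 against ApoE. Of 8 T and NK cell markers, Cd4 was called in both ApoE against WT (higher) and AS2 against ApoE (lower), and no other was called in the comparisons with ApoE. Of 5 B cell markers, 1 fell with ApoE against WT, 2 rose with AS1 against ApoE and 1 fell with AS2 against ApoE. Of 7 stromal and endothelial markers, 1 rose with ApoE against WT, 1 fell with AS1 against ApoE and 2 fell with AS2 against ApoE, with array means from 4.29 to 4.83. The part of such cells in the ligand differences was not tested.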

How the data were processed

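Gene expression was measured on 18 Affymetrix arrays. The authors deposited log2 values, and the submitters' processing notes name RMA, a method that subtracts background, makes array distributions alike and combines probes. Its version was not stated. Row identifiers are Entrez gene numbers, and symbols came from the platform annotation: 24705 of 25428 rows had 1 symbol, 0 had several and 723 were unnamed. The sum of values, together with the lowest or the highest value, was identical in 17 of the 18 arrays, so a change in total RNA cannot be seen. The array that differed was not identified.

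Limma 3.58.1 in R 4.3.3 fitted 4 group means to 24705 rows with lmFit and eBayes, leaving 14 residual degrees of freedom. All p-values are two-sided and were adjusted over all these rows by the Benjamini-Hochberg method, with a threshold of 0.05. The fit was tested on simulated data. Precision is limited by the number of arrays. The members and lists were chosen with earlier results of these data known. Every member is described, and each other list names up to 4 genes with the smallest p in the 3 main comparisons (ApoE against WT, AS1 and AS2 against ApoE). Rows nearest to a ligand were the 3 with the most similar centred values, passing over predicted genes and small RNA genes, for ligands ranging over at least 1 log2 unit. Of the list genes, those without a row were not analysed here. Alternatives were fitting unnamed rows too, dropping rows whose mean lay below the 40th percentile, keeping 1 row per gene, repeating quantile normalization, centring arrays on their median, trended robust variance, array weights, the 2 groups alone, a replicate block, each array left out, and ApoE replicates 2 and 5 left out together. Gene order and promoter windows came from RefSeq (GRCm38.p6). No genome build for the arrays was stated, so no other coordinates are given.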

Additional observations from a re-analysis of the deposited data

Results flagged for a closer look

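Of 30 sets of arrays examined (10 genes in the groups of 4 to 6 arrays), 1 held an array that stood apart from its group. Ccl9 in WT replicate 3 was 12.81, whereas the 3 other WT arrays were all 12.86, so the gap equalled the whole range of the group. Chance alone sets apart about 1 in 20 such sets. The WT values of Ccl9 spread over 0.047 log2 units in all.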

How the results depend on the processing

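The 24 called differences of the ligand genes kept their sign in all 28 alternative settings, and 17 passed the threshold in every one. The others lost it in 21 of 672 refits, as given beside each gene or, for the replicate block, with the block's counts. Ccl12 lay under the filter on low values and has no value there. The count of members called for AS1 against ApoE, 2 as reported, was 1 in a fit of the 2 groups alone and 4 without both ApoE replicates 2 and 5, and ran from 1 to 4 with 1 array left out. For AS1 against WT, 1 as reported, it was 2 with array weights, with the replicate block and without both ApoE replicates 2 and 5, and ran from 0 to 2 with 1 array left out. Counts for the 4 other pairs stayed within 1.5 times. Only differences that were not called turned sign. With array weights these were Ccl6 (-0.035) and Ccl24 (0.024) in AS2 against ApoE, Ccl2 in AS1 against WT (0.017) and Ccl24 in AS2 against AS1 (0.0018). Without both ApoE replicates 2 and 5 they were Ccl6 (-0.062) and Ccl24 (0.0069) in AS2 against ApoE. With 1 array left out, Ccl24 ran from -0.031 to 0.050 in AS1 against ApoE and from -0.039 to 0.030 in AS2 against ApoE, and Ccl6 from -0.057 to 0.053 in the latter. In AS1 against WT, Ccl2 ran from -0.13 to 0.070, Ccl7 from -0.041 to 0.13 and Ccl12 from -0.035 to 0.041. In AS2 against AS1, Ccl3 ran from -0.012 to 0.093, Ccl4 from -0.17 to 0.056, Ccl12 from -0.0019 to 0.075 and Ccl24 from -0.052 to 0.020. The causes were not tested.

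Same-numbered arrays of different groups showed little likeness: 4 of 22 same-numbered pairs had a correlation of deviations over 0.1, and the range was -0.21 to 0.13. Such correlations cannot show whether replicate numbers marked a shared culture or run. Some pairs with different numbers had stronger correlations, such as WT replicate 2 with AS2 replicate 1 (0.38) and with AS2 replicate 4 (-0.28). Such likeness between arrays of different groups was not modelled. With the replicate block, the counts of members called were 6 for ApoE against WT, 3 for AS1 against ApoE, 5 for AS2 against ApoE, 2 for AS1 against WT, 6 for AS2 against WT and 4 for AS2 against AS1. With this block, Ccl2 (0.012) and Ccl12 (0.0018) in AS1 against WT and Ccl4 in AS2 against AS1 (0.050) turned sign, none of them called. Ccl5 in AS1 against WT and Ccl9 in AS2 against AS1 lost their calls (adjusted p = 0.0665 and 0.0605). Ccl3 in AS2 against ApoE and AS1 against WT (adjusted p = 0.0453 and 0.0461) and Ccl22 in AS1 against ApoE and WT (adjusted p = 0.0365 and 0.0194) gained one. Signal over background was not analysed here, which limits what can be said of the dim rows Ccl12, Ccl22 and Ccl24.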
